A study of Mus musculus with 32 samples.

Results

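The 10 genes described here encode secreted proteins of the scar matrix: the adhesive glycoprotein fibronectin (Fn1), the matricellular proteins Postn, Thbs1, Thbs2, Sparc and Wisp2, and the small leucine-rich proteoglycans Fmod, Lum, Dcn and Bgn. They were chosen by symbol, 10 of the 23420 genes counted, with their higher levels in injured than in sham cords already known. The comparisons of injured with sham cords are therefore given as a description, with no p-value. How many genes the fit called in them is stated beside the share over all genes, and nothing is read from it. All 10 were among the 16314 genes with enough counts to be tested.

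RNA was measured by sequencing of whole spinal cord tissue in 32 libraries from C57BL/6J mice aged 8 to 12 weeks. The tissue was the stretch of cord reaching 2 to 3 mm to either side of the lesion or injection. Libraries fell into 10 groups: sham, injured control, injured with Gsx1 and injured with Nkx6.1 at 3 days after injury (3 each), injured control and injured with Gsx1 at 14 days (3 each), and at 35 days sham (3), injured control (4), injured with Gsx1 (4) and injured with Nkx6.1 (3). Gsx1 and Nkx6.1 are homeodomain transcription factors of the developing spinal cord. The sources used here do not give how they were delivered, what the control cords received or the sex of the mice. Whether the replicates of a group are separate animals is not stated, so p-values measure only the spread between these libraries. In 5 groups (sham and injured control at 3 days, and sham, injured control and Nkx6.1 at 35 days) libraries with Xist above 100 CPM stand beside libraries with Xist under 10 CPM, so these groups are not repeats of a single animal. All groups but the sham ones carry the label SCI (spinal cord injury), and sham cords were sampled here at 3 and 35 days only. Tissue was snap-frozen and libraries were sequenced as paired ends. How the injury was made is likewise not stated.

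When the cord is wounded, cells of the vessel wall and the meninges with the character of fibroblasts, together with blood-derived macrophages, fill the lesion core and lay down matrix that the healthy cord largely lacks. Fibronectin is the provisional scaffold that cells grip through integrins. Matricellular proteins are secreted into the matrix but act mainly as signals that tune adhesion and growth factors, while small leucine-rich proteoglycans coat collagen and set the width and spacing of its fibrils.

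Levels are CPM, the count of a gene relative to the total of its library after TMM scaling, and group values are means ± SD. Differences are log2 fold changes from edgeR's quasi-likelihood fit with their standard errors (SE), with p-values adjusted by Benjamini-Hochberg over the 16314 genes and a gene called below 0.05. The total count per library was 10.8 to 19.5 M. Neuron markers (7 genes) summed to 2137 to 8107 CPM and astrocyte markers (6 genes) to 5213 to 13302 CPM over the libraries, so markers of neural tissue were present in each. Transcripts of both sexes (Xist above 100 and Ddx3y above 10 CPM) were present in 2 libraries, replicate 1 of the sham cords at 3 days and replicate 4 of the injured control at 35 days. At 3 days, skeletal muscle markers (8 genes) summed to 305 CPM in injured control replicate 3 and 595 CPM in Nkx6.1 replicate 2. They stayed under 100 CPM in the other 30 libraries, but were not absent from them. At 35 days they reached 95.1 CPM in sham replicate 1 and 91.2 CPM in Nkx6.1 replicate 3. At 14 days they reached 87.1 and 71.8 CPM in injured control replicates 1 and 3 and 63.8 CPM in Gsx1 replicate 2. Below, libraries with muscle transcripts means only the 2 above 100 CPM, and only these were left out for that reason. Where leaving out the 2 libraries of either kind changed a member's call, this is stated. Group means and other values include these libraries. In whole tissue, more cells of a type and more RNA per cell cannot be told apart.

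Promoter sequences were available from RefSeq (GRCm38.p6) for 5 of the 10 genes, Fmod, Postn, Sparc, Thbs2 and Bgn, with a pair of start sites for Postn. Shown are the 250 bases before a start site for the 3 genes among them whose levels in Gsx1 and injured control cords did not overlap at 14 days, because these members stood lower together in one comparison below. The Postn window lies at chr3:54360857-54361106 on the plus strand, just before the annotated gene. The Thbs2 window lies at chr17:14694263-14694512 on the minus strand and the Bgn window at chrX:73483351-73483600 on the plus strand. All 3 are printed in the direction of transcription, and capitals mark the motif matches.
Postn promoter: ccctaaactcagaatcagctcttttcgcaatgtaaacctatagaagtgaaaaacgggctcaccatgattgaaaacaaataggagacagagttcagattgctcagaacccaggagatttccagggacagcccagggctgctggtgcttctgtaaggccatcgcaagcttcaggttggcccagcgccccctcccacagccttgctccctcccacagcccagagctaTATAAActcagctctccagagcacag
Thbs2 promoter: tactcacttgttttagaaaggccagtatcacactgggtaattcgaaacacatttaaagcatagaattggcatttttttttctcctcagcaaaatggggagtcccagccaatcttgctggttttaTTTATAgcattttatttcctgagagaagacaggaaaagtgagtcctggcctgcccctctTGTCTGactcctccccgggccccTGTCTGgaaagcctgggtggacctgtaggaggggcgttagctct
Bgn promoter: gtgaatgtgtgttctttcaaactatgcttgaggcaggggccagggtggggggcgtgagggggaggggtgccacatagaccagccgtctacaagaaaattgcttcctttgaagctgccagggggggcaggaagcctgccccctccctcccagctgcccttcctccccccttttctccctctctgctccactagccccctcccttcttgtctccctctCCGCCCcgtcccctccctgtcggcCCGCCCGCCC
Motifs were searched on both strands. The Postn window holds 1 TATA box (TATAAA), at base 225 counted from the 5′ end, near the start site, and 12.4% of the 32851 mouse promoters hold that motif. The Thbs2 window holds 1 match to it on the opposite strand, at base 125, and the 6-letter SMAD motif CAGACA as TGTCTG at bases 184 and 207, a motif held by 17.1% of promoters. The Bgn window holds no TATAAA and 3 matches to the GC box GGGCGG, as CCGCCC at bases 217, 241 and 245, of which the last 2 overlap. The GC box is held by 32.7% of promoters. Neither the AP-1 motif TGANTCA (6.75% of promoters) nor the TEAD motif GGAATG (12.6%) matched in any of the 6 windows. These are letter matches, not binding sites.

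Fibronectin was the most abundant of the set after Sparc in the injured control at 3 days, per kilobase of exon. Fn1 (GRCm38 chr1:71585520-71653200, minus strand) stood at 134, 124 and 140 CPM in the 3 sham cords at 3 days and at 1118, 638 and 1257 CPM in the injured control. The groups did not overlap, and the injured control was higher by 2.92 ± 0.43 (SE) on the log2 scale. At 35 days the 3 sham cords had 39.1, 38.1 and 57.7 CPM and the 4 injured control cords 213, 308, 343 and 675 CPM. Within the injured control Fn1 fell from 1004 ± 325 CPM at 3 days to 385 ± 201 at 35 days, a log2 change of -1.38 ± 0.37 (adjusted p = 0.0174). Without replicate 1 or replicate 3 of the 3-day control, or without replicate 1 of the 35-day control, the adjusted p rose to between 0.0513 and 0.0675. It was 0.0673 without the 2 libraries with muscle transcripts, and 0.093 when only the groups compared were fitted (-1.42). Reads of Fn1 share 292 bases of exon with the antisense gene Apol7d, and the sources used here do not say whether counting used strand.

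Periostin, a matricellular protein that fibroblasts secrete in healing wounds and that promotes collagen cross-linking, had its highest mean level at 14 days. Postn (chr3:54361109-54391037, plus strand) was nearly absent from sham cords, at 2.63, 1.51 and 1.57 CPM at 3 days and 1.17, 0.0848 and 1.97 CPM at 35 days, the second of which is 1 read. The injured control had 14.6, 9.86 and 21.6 CPM at 3 days. It then reached 199, 149 and 101 CPM at 14 days, above every other library in the series. This rise from 3 to 14 days came to 3.29 ± 0.77 on the log2 scale (adjusted p = 0.0165), and the groups did not overlap. The call was lost without replicate 1 or 2 of the 3-day control or replicate 1 or 2 of the 14-day control, where the adjusted p lay between 0.0525 and 0.0858 and the log2 change between 3.03 and 3.29. At 35 days the injured control had 14.6, 20.4, 22.1 and 66.7 CPM, all below the 14-day cords. The fall of -2.27 ± 0.66 on the log2 scale missed the threshold (adjusted p = 0.064). DESeq2 called it (-2.29, adjusted p = 0.043), as did the edgeR fit without replicate 2 of the 35-day control (-2.11, adjusted p = 0.0486). No other fit tried called this fall.

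Both thrombospondins bind cell surface receptors and inhibit vessel growth. Thbs1, which is stored in platelets and also made by activated macrophages, can activate latent TGF-beta, and Thbs2 is made mainly by fibroblast-like cells. Thbs1 (chr2:118111876-118127133, plus strand) had 31, 15.2 and 12.3 CPM in the sham cords at 3 days. The injured control had 280, 86.8 and 223 CPM, 3.34 ± 0.57 higher on the log2 scale. From there it fell to 67.7 ± 9.9 CPM at 14 days and 40.4 ± 18.4 at 35 days, where the change from 3 days of -2.28 ± 0.49 passed the test (adjusted p = 0.00362) and the groups did not overlap. Thbs1 shares 208 bases of exon with the opposite-strand noncoding gene Gm29233, with the same limit as for Fn1.

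Thbs2 (chr17:14665500-14694235, minus strand) kept a flatter course than its relative. Sham cords held 35.1 to 37.7 CPM at 3 days and 31 to 36.4 CPM at 35 days. The injured control had 142 ± 25 CPM at 3 days, 147 ± 2.02 at 14 days and 102 ± 23.4 at 35 days, and no change between these days passed the test (adjusted p from 0.189 to 0.933). The 3 control cords at 14 days, at 149, 148 and 145 CPM, had the smallest spread relative to the mean of any group and member.

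Sparc, a collagen-binding matricellular protein that astrocytes, microglia and endothelial cells also make in the healthy cord, was the most abundant member per kilobase in each of the 10 groups, and its group means differed least, the lowest being 63.8% of the highest. It stood at 1394 ± 124 CPM in sham cords at 3 days and at 2038 ± 55 CPM in the injured control, which is 0.55 ± 0.15 higher on the log2 scale. At 35 days the values were 1421 ± 22.8 and 2167 ± 436 CPM. The 4 control cords at 35 days split into 2508 and 2576 CPM in replicates 1 and 4 and 1742 and 1841 CPM in replicates 2 and 3. Replicates 1 and 4 were also the libraries of this group with Xist above 100 CPM, replicate 4 with transcripts of both sexes. Their neuron markers summed to 3884 and 2681 CPM, beside 5781 and 5636 CPM. Macrophage markers summed to 2079 and 2572 CPM in them, beside 1128 and 1315 CPM. The part of these in the split was not tested. The lowest injured library for Sparc, at 1543 CPM, was still above the highest sham library, at 1527 CPM.

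Wisp2, the CCN family protein now named Ccn5, lacks the C-terminal domain of its relatives and is known to restrain smooth muscle growth and fibrosis. It was nearly absent from the 3 sham cords at 35 days, with 1, 0 and 4 reads, and had 13 to 19 reads in those at 3 days. The injured control had 9.06, 6.18 and 1 CPM at 3 days, 13.5, 15.6 and 28.1 CPM at 14 days and 102, 25.3, 39.4 and 105 CPM at 35 days. The values of 102 and 105 CPM are from replicates 1 and 4, the libraries of that group with Xist above 100 CPM. The rise from 3 to 35 days was 3.64 ± 0.74 on the log2 scale (adjusted p = 0.00227), with no overlap. Summed over the 35-day libraries, injured control cords held 487 times the sham level, with a 95% counting interval of 208 to 1500 because the sham group rests on 5 reads. Against the 3-day sham cords the ratio at 3 days was 4.82 (3.51 to 6.75). Both intervals treat reads as the unit and leave out the spread between libraries. At 3 days the lowest injured control library, at 1 CPM, lay below the sham cords, at 1.03 to 1.35 CPM.

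**Figure D1:**
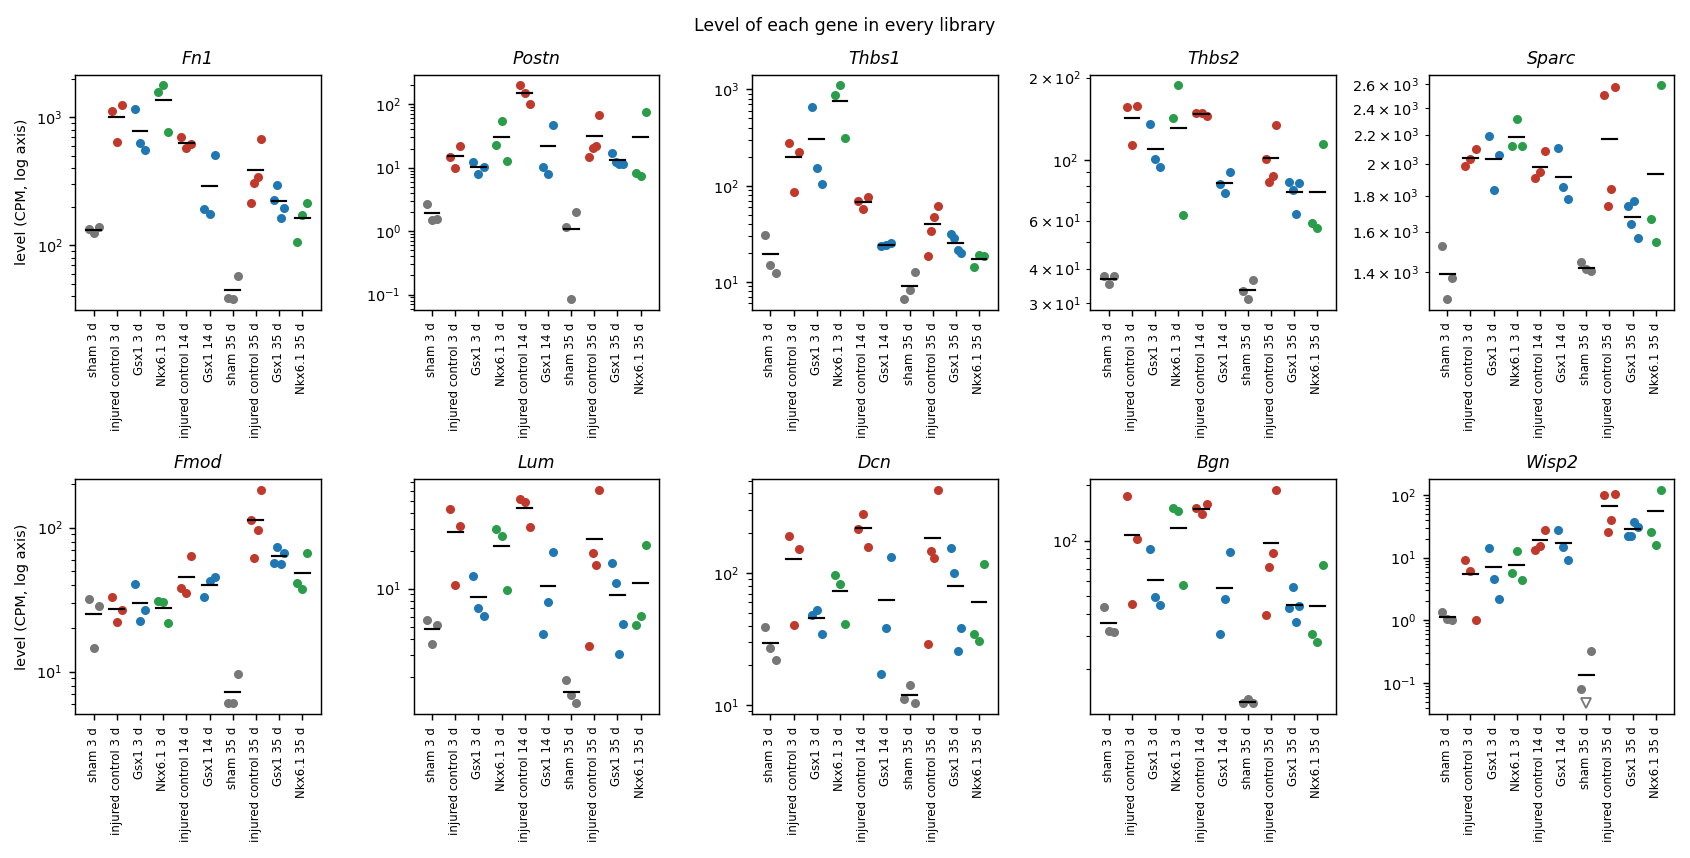
Level of each of the 10 genes (CPM, log axis) in all 32 libraries by group, with 1 point per library, a bar at the group mean, and an open triangle at the foot of the axis for a count of 0. The 3 injured control cords at 14 days hold the highest Postn values. The highest mean is in the Nkx6.1 cords at 3 days for Thbs1, and in the injured control at 35 days for Wisp2 and Fmod.

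Fibromodulin, which binds collagen type I and guides fibril assembly, was the late member of the proteoglycans. Fmod (chr1:134037254-134048277, plus strand) had 32, 14.6 and 28.6 CPM in sham cords at 3 days and 33.1, 22.2 and 26.9 CPM in the injured control, which overlapped. At 35 days sham cords had 6.03, 6.02 and 9.68 CPM and injured controls 113, 61.1, 96.9 and 184 CPM. Between 3 and 35 days Fmod rose in the injured control by 2.05 ± 0.32 on the log2 scale (adjusted p = 0.000182), and the groups did not overlap. From 14 to 35 days the rise was 1.31 ± 0.31 (adjusted p = 0.0429), although the groups overlapped. That second call did not hold without replicate 4 of the 35-day control, one of the libraries with transcripts of both sexes, where the change was 0.98 (adjusted p = 0.108), nor without replicate 1 or 2 at 14 days or replicate 1 at 35 days (adjusted p from 0.161 to 0.218).

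Lumican and decorin are neighbours on chromosome 10, where Dcn (chr10:97479609-97518143) and Lum (chr10:97565128-97572703) are transcribed in the same direction 47 kb apart. Decorin binds collagen and TGF-beta, and lumican regulates fibril diameter. Lum stood at 4.82 CPM in sham cords at 3 days and 1.52 CPM at 35 days, and at 28.4 ± 16.5, 43.6 ± 11.3 and 24.8 ± 25.2 CPM in the injured control at 3, 14 and 35 days. Dcn stood at 29.4 and 11.9 CPM in the sham groups and at 128 ± 78, 218 ± 62 and 184 ± 171 CPM in the injured control. Both had wide groups at 35 days: Dcn was 29.1 CPM in replicate 1 and 428 CPM in replicate 4 of the injured control, and Lum 3.5 and 61.2 CPM in the same libraries.

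Biglycan, the X-linked relative of decorin that also signals through Toll-like receptors when released, followed a similar course. Bgn (chrX:73483602-73495933, plus strand) had 43.2, 32.1 and 31.9 CPM in sham cords at 3 days against 174, 45 and 102 CPM in the injured control. At 14 days the injured control held 151, 139 and 158 CPM, and at 35 days 39.3, 71.8, 85.4 and 190 CPM against 13, 13.7 and 13 CPM in sham cords. The lowest injured control library at 3 days, replicate 2 at 45 CPM, lay just above the highest sham library.

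Counted together, 8 of the 10 genes were called higher in the injured control than in sham cords at 3 days, all but Fmod and Wisp2, where 19.5% of all genes tested were called higher. Without replicate 1 of the injured control the count was 5, as Lum, Dcn and Bgn were no longer called. Without the 2 libraries with muscle transcripts Dcn was not called and Wisp2 was. At 35 days all 10 were called higher, where 21.3% of genes were. Members were picked for this contrast, so nothing is read from these counts. The injury effect itself was larger at 35 than at 3 days by 3.85 ± 0.48 on the log2 scale for Fmod, the 1 member called in that comparison (0.178% of genes were called in that direction). For Wisp2 the same difference was 6.71 ± 1.71, resting on the near-zero sham counts. Both differences are built from the injury contrasts for which the members were picked, so they too are a description.

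Sham cords themselves differed between the days. No member was called between 35 and 3 days, where 0.00613% of genes were. The groups did not overlap for 6 members, all lower at 35 days (Fn1, Fmod, Lum, Dcn, Bgn and Wisp2), a pattern that 12.4% of genes showed. The difference was -1.79 ± 0.36 for Fmod (adjusted p = 0.105) and -1.56 ± 0.42 for Fn1 (adjusted p = 0.355). When only the sham libraries were fitted, these 6 genes were called (adjusted p from 8.12e-05 to 0.0430), among 633 of 14775 genes. Schwann cell markers (6 genes) summed to 239 to 442 CPM in sham cords at 3 days and 32.4 to 49.6 CPM at 35 days, and fibroblast markers (8 genes) to 187 to 306 and 121 to 139 CPM. Their part in the difference was not tested.

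The peak of each gene over all 10 groups sorted the set into 3 kinds. Fn1, Thbs1 and Sparc had their highest mean in the Nkx6.1 cords at 3 days, at 1375 ± 537, 766 ± 410 and 2185 ± 113 CPM. Postn, Thbs2, Lum, Dcn and Bgn had it in the injured control at 14 days. Fmod and Wisp2 had it in the injured control at 35 days, at 114 ± 51.6 and 67.9 ± 41.5 CPM. Of the 9 steps between neighbouring groups in each gene's order, 7 or 8 overlapped, so most neighbours in the order do not differ beyond their spread. The 35-day sham cords had the lowest mean for 9 genes, and the 3-day sham cords the lowest for Sparc.

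**Figure D2:**
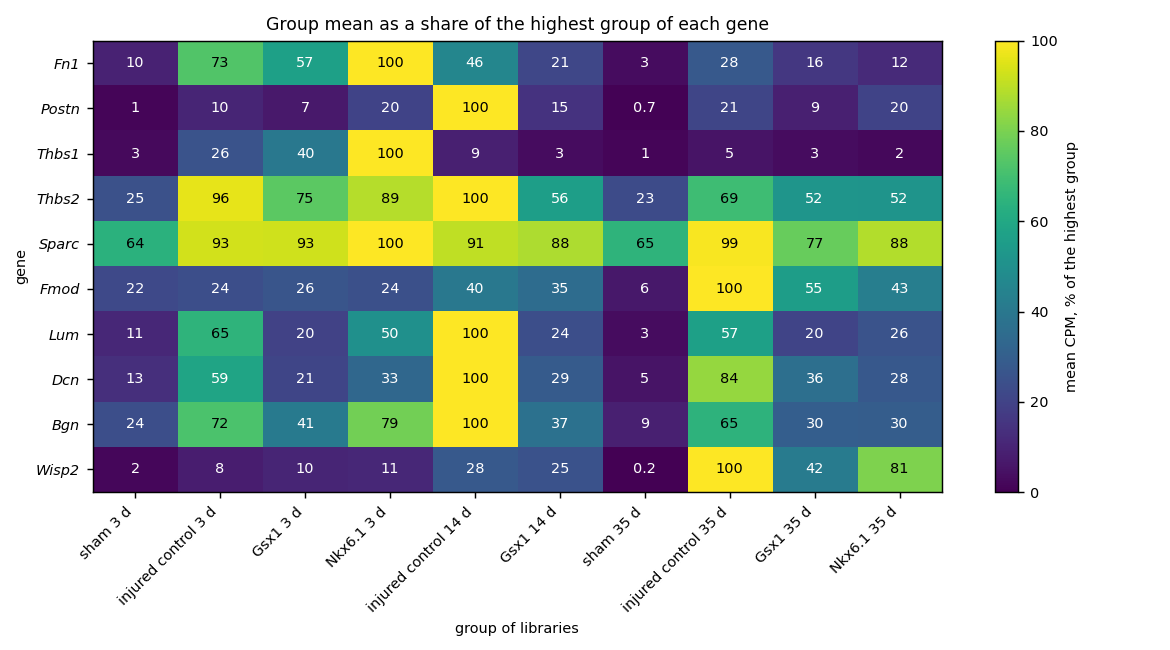
Mean level of each gene (rows) in each of the 10 groups (columns) as a percentage of its highest group, with the value printed in each cell. Thbs1 in injured controls goes from 25.7% at 3 days to 5.28% at 35 days while Fmod goes from 24.1% to 100%, and the lowest Sparc group is at 63.8%.

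Within the injured control, 1 member was called higher at 14 than at 3 days (Postn) against 0.644% of genes. From 14 to 35 days 1 was called higher (Fmod) against 0.858% of genes. From 3 to 35 days 2 were called higher (Fmod and Wisp2) against 5.04% and 2 lower (Fn1 and Thbs1) against 5.97%. These comparisons share the control groups, so the Postn rise into day 14 and its lower values after it rest partly on the same 3 libraries. Other small leucine-rich proteoglycans were called in the same direction as Fmod between 3 and 35 days in 4 of 12 cases: Prelp (1.55 ± 0.22, adjusted p = 6.4e-05), Ecm2 (1.24 ± 0.29), Podn (1.59 ± 0.43) and Omd (2.28 ± 0.70). None of the 12 was called lower. Among 16 integrins and other receptors of these proteins, 6 were called lower and none higher, among them the fibronectin receptor subunit Itga5 (-1.36 ± 0.31, adjusted p = 0.00582). Of 21 other matricellular genes 4 were called lower at 35 days, such as osteopontin Spp1 (-2.54 ± 0.34) and fibulin Fbln2 (-2.79 ± 0.45), and 3 higher, such as Thbs3 (1.08 ± 0.27), with a median of 0.05 beside 0.03 over all genes.

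At 14 days the cords with Gsx1 had lower values of 7 members, in every library, than the injured control. None of the 10 was called, and 0% of all genes were, so nothing in this comparison passes the correction over the genes tested. Postn was 10.1, 7.86 and 47.2 CPM with Gsx1 against 199, 149 and 101 CPM, a log2 difference of -2.79 ± 0.74 (adjusted p = 0.268). Thbs1 was 23.4, 24.5 and 25.5 CPM against 69.7, 56.9 and 76.4 CPM, a difference of -1.47 ± 0.54 (adjusted p = 0.593). Thbs2 was 81.9, 75.7 and 90.3 CPM against 145 to 149 CPM, a difference of -0.83 ± 0.27 (adjusted p = 0.44). In both thrombospondins the 3 Gsx1 cords lay close together and below the controls.

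All 7 of these genes had their highest Gsx1 value in the same library, replicate 3, which for Postn, Fn1, Lum, Dcn and Bgn stood well above the other Gsx1 libraries. Fn1 was 194, 176 and 506 CPM with Gsx1 against 576 to 696 CPM in the control (-1.11 ± 0.41, adjusted p = 0.586). Lum was 4.41, 7.86 and 19.4 CPM against 30.6 to 51.3 CPM (-2.05 ± 0.73, adjusted p = 0.564), and Dcn 17.1, 38.6 and 132 CPM against 157 to 281 CPM (-1.81 ± 0.75, adjusted p = 0.694). Bgn was 31.1, 48.1 and 87 CPM against 139 to 158 CPM (-1.43 ± 0.48, adjusted p = 0.506). Levels of Sparc (1914 ± 173 against 1980 ± 95.1 CPM), Fmod (40.3 against 45.7 CPM) and Wisp2 (17.2 against 19.1 CPM) overlapped between the groups.

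Groups without overlap, lower with Gsx1, were thus found for 7 of 10 members, and for 8.49% of all genes. Seen without correction, p was under 0.05 for the same 7 genes, and for 5.88% of all genes. DESeq2 called 43 genes and no member. When only the 6 libraries of this comparison were fitted, Thbs1 (adjusted p = 0.0044) and Thbs2 (adjusted p = 0.00928) were called, among 29 of 15513 genes. A list overlapping with these members had already been seen to be lower with Gsx1 at this day, so the pattern is not independent support for anything. The fibril collagens and their modifying enzymes were likewise all uncalled, with a median log2 difference of -1.82 over 16 genes beside -1.27 over the members and 0.01 over all genes. Col6a3, for example, was 75.8 ± 17.3 CPM in controls and 12.6 ± 4.49 with Gsx1 (adjusted p = 0.16).

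Markers of several cell types moved with this difference. Fibroblast markers, all 8 of them detected and including Col1a1 and Col1a2, summed to 1761 to 2068 CPM in the controls at 14 days and 425 to 576 CPM with Gsx1. Meningeal markers (8 of 8 detected) summed to 104 to 129 and 23.3 to 68.6 CPM, and Schwann cell markers (6 of 6) to 557 to 1233 and 49.9 to 413 CPM. Astrocyte markers (6 of 6) were higher with Gsx1, at 8783 to 10109 CPM in the controls and 10739 to 11315 CPM. Red blood cell markers, of which 1 or 2 of the 3 measured were detected, were too, at 13.1 to 52.3 and 59.0 to 202 CPM. Macrophage markers (7 measured, all detected) overlapped, at 1057 to 2104 and 522 to 1349 CPM, as did pericyte markers (7 of 7), at 236 to 284 and 187 to 256 CPM. Skeletal muscle markers (8 genes) overlapped too, at 10.4 to 87.1 CPM in the controls and 12.4 to 63.8 CPM with Gsx1. So did adipocyte markers (5 genes), at 0.4 to 29.7 and 0.23 to 8.11 CPM. The part of these markers in the result was not tested. Xist was at most 0.459 CPM in all 6 libraries.

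**Figure D3:**
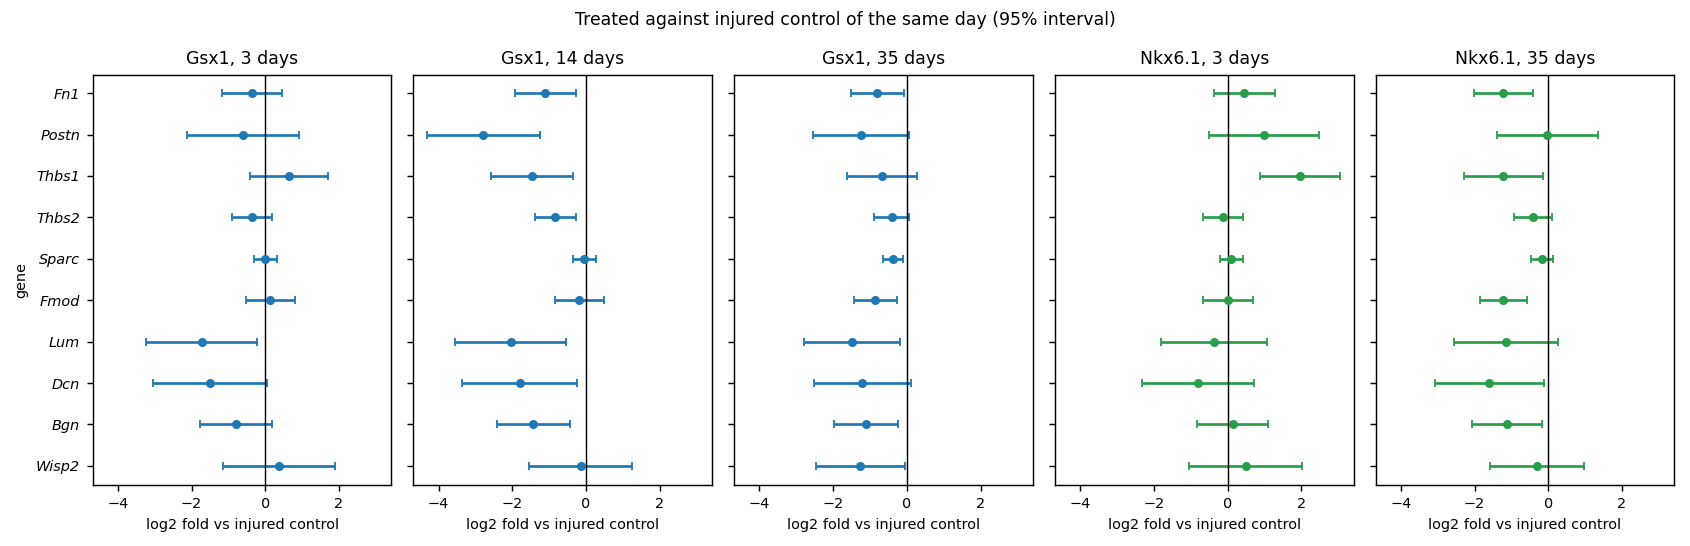
Log2 difference between treated and injured control cords of the same day for each gene (rows), 1 panel per treatment and day, with points at the edgeR estimate and bars for the 95% interval. Intervals lie below 0 for 1, 7 and 6 genes with Gsx1 at 3, 14 and 35 days, and for 0 and 5 genes with Nkx6.1 at 3 and 35 days. In the same order, 2.07%, 5.88%, 18.9%, 18.3% and 12.3% of all genes had an unadjusted p under 0.05 in either direction. No gene shown passed the correction over all genes in any panel.

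At 3 days no member and 0% of genes were called between Gsx1 and injured control cords, with edgeR or with DESeq2. An unadjusted p under 0.05 was found for 1 member and 2.07% of genes. Lum was 12.5, 7.02 and 6.07 CPM with Gsx1 and 43.1, 10.6 and 31.4 CPM in the control, which overlapped (-1.73 ± 0.73, adjusted p = 1). Thbs1 was 661 CPM in replicate 1 of the Gsx1 cords and 151 and 105 CPM in the others, against 86.8 to 280 CPM in the control. At 35 days again no member and 0% of genes were called, with adjusted p from 0.194 to 0.403, although all 10 log2 differences were negative, as were those of 53.6% of genes. An unadjusted p under 0.05 was found for 6 members and 18.9% of genes, and DESeq2 called 11 genes and no member. Fmod was 55.7 to 73.3 CPM with Gsx1 and 61.1 to 184 CPM in the control (-0.85 ± 0.28, adjusted p = 0.194). Wisp2 was 22 to 37.4 CPM against 25.3 to 105 CPM (-1.26 ± 0.58, adjusted p = 0.25). Leaving out replicate 2 of the 35-day control, the lowest of its group for Fmod, Sparc and Wisp2, brought Fmod (-1.06, adjusted p = 0.026) and Sparc (-0.46, adjusted p = 0.0354) past the threshold, and 1872 of 16308 genes with them. Xist stood above 100 CPM in 2 of the 4 control libraries and in none of the Gsx1 libraries, and with high Xist as a covariate no member was called either.

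Whether the Gsx1 difference changed with time was tested directly. The difference at 14 days minus that at 3 days was called for no member and for 0% of genes. It was -2.19 ± 1.03 for Postn and -2.10 ± 0.74 for Thbs1, both with an adjusted p of 1, and they were the 2 members with an unadjusted p under 0.05 (1.89% of genes). DESeq2 called 2 genes and no member. The same comparison of 35 with 14 days was called for no member and for 0% of genes, with adjusted p from 0.611 to 0.866, and 0 members and 7.99% of genes had an unadjusted p under 0.05. DESeq2 called none. The 2 comparisons share the 14-day libraries.

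Within Gsx1 cords, Thbs1 fell from 306 ± 309 CPM at 3 days to 24.5 ± 1.06 at 14 days (-3.64 ± 0.58, adjusted p = 0.00075) and Fn1 from 784 ± 336 to 292 ± 186 CPM (-1.42 ± 0.41, adjusted p = 0.0356). These 2 were the members called, in a comparison where 4.81% of genes were called lower. The Fn1 call was lost without replicate 1 at 3 days or replicate 1 or 2 at 14 days (adjusted p from 0.155 to 0.26). Postn, which rose over these days in the control, was 10.1 ± 2.2 CPM at 3 days and 21.7 ± 22.1 CPM at 14 days with Gsx1, where 1 of the 3 libraries stood out at 47.2 CPM. From 14 to 35 days in Gsx1 cords no member was called, and 0.00613% of genes were.

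Nkx6.1 cords at 3 days held the highest mean Thbs1 of the series, at 882, 1106 and 311 CPM, above each of the injured control cords at 86.8 to 280 CPM. Their range overlapped that of the Gsx1 cords at 3 days, where replicate 1 had 661 CPM. The difference of 1.96 ± 0.53 on the log2 scale missed the threshold (adjusted p = 0.0767), and no member was called, beside 0.337% of genes. DESeq2 called Thbs1 (adjusted p = 0.0195) among 467 of 15271 genes. The edgeR fit without replicate 3 of the Nkx6.1 cords, the lowest of the group, also called it (adjusted p = 0.00697), among 2571 of 16500 genes. No other fit tried called Thbs1 here, and the fit without the libraries with muscle transcripts did not. Macrophage markers summed to 2959 to 4929 CPM in these cords and to 1225 to 2338 CPM in the control, and platelet markers (6 genes) to 46.1 to 90.2 and 17.7 to 35.8 CPM. Their part in the Thbs1 difference was not tested. Between Gsx1 and Nkx6.1 cords no member was called at 3 days, where 0.0797% of genes were, or at 35 days, where 0% were. The Thbs1 difference between them at 3 days was -1.33 ± 0.52 (adjusted p = 0.274). It was called without replicate 1 of the Gsx1 cords (-2.58, adjusted p = 0.0104), among 554 of 16492 genes, or without replicate 3 of the Nkx6.1 cords (-1.70, adjusted p = 0.0376), among 1942 of 16500. No other fit tried called this difference.

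At 35 days no member and 0% of genes were called between Nkx6.1 and injured control cords, with edgeR or DESeq2, while 5 members and 12.3% of genes had an unadjusted p under 0.05. Fmod was 41.6, 37.3 and 67 CPM with Nkx6.1 (-1.22 ± 0.31, adjusted p = 0.326) and Fn1 107, 172 and 215 CPM (-1.22 ± 0.39, adjusted p = 0.335). Replicate 3 of these cords stood apart, with Postn at 75.2 CPM beside 8.21 and 7.48, Wisp2 at 123 CPM beside 25.9 and 15.8, and Sparc at 2587 CPM beside 1666 and 1543. Its fibroblast markers summed to 724 CPM, beside 209 and 191 CPM. Its Schwann cell markers summed to 551 CPM, beside 92.4 and 229 CPM, and its skeletal muscle markers to 91.2 CPM, beside 5.35 and 8.31 CPM. The part of these markers in its values was not tested. Without replicate 3 Fmod was called, at -1.53 (adjusted p = 0.0484), among 72 of 16501 genes.

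Between 3 and 35 days the Nkx6.1 cords went through the steepest fall of the set. Thbs1 went from 882, 1106 and 311 CPM to 14.3, 19 and 18.7 CPM, which is -5.47 ± 0.63 on the log2 scale (adjusted p = 1.07e-06), and Fn1 from 1375 ± 537 to 165 ± 54.3 CPM (-3.06 ± 0.43). Bgn (-1.41 ± 0.49) and Thbs2 (-0.78 ± 0.27) were also called lower, so 4 members fell where 21.5% of genes did. Wisp2 rose by 2.85 ± 0.73 (adjusted p = 0.00297) and Fmod by 0.82 ± 0.33 (adjusted p = 0.0456), 2 members where 21% of genes rose. Bgn, Thbs2 and Fmod were all lost without replicate 2 at 3 days, the library with muscle transcripts (adjusted p from 0.0776 to 0.244), and without replicate 1 at either day. Bgn and Thbs2 were also lost without replicate 2 at 35 days, and Fmod without replicate 3 at either day. Wisp2 was lost without replicate 3 at 35 days (1.45, adjusted p = 0.0852). Thbs1 and Fn1 were called under each of these.

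The Nkx6.1 difference itself shifted between days for 1 member, Thbs1, by -3.18 ± 0.74 on the log2 scale (adjusted p = 0.039), where 1.87% of genes were called lower. At 3 days the Nkx6.1 mean was 766 CPM beside 197 CPM in the control, and at 35 days 17.4 beside 40.4 CPM. The call was lost on leaving out any of 8 of the 13 libraries in turn, among them the 2 with muscle transcripts and the 1 with transcripts of both sexes, with changes from -2.82 to -3.40 and adjusted p from 0.0664 to 0.151.

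Libraries of the same group varied together in most of these genes. Over the deviations of all 32 libraries from their group means (log2 CPM), Pearson's r had a median of 0.58 over the 45 pairs of genes. The libraries share their preparation and the table's scaling, and the values are a description. Lum and Dcn, the neighbours on chromosome 10, had r = 0.96, Lum and Bgn 0.89, and Dcn and Bgn 0.85. Wisp2 and Sparc were more loosely tied to the rest: Wisp2 ranged from -0.04 with Dcn to 0.70 with Sparc, with a median of 0.31 over its 9 pairs, and Sparc had 0.11 with Dcn and 0.16 with Thbs1. Fmod, the other late gene, had r = 0.56 with Wisp2 within groups and 0.90 over the libraries as they are.

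**Figure D4:**
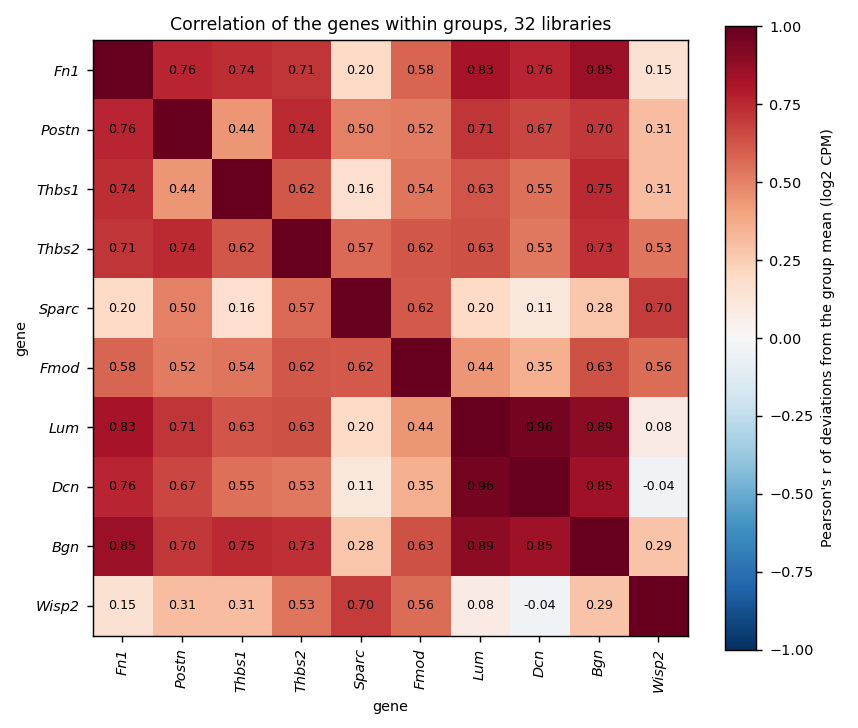
Pearson's r between each pair of the 10 genes, from the deviations of 32 libraries from their group means on the log2 CPM scale, with blue for negative and red for positive values. Lum, Dcn and Bgn form the tightest block, at 0.85 to 0.96, and Wisp2 and Sparc hold the lowest values, down to -0.04.

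Among all genes with a mean of at least 1 CPM, the 5 whose levels over the 32 libraries were most like the average of the members were Fgl2 (r = 0.97), S100a4 (0.96), Rcn3 (0.95), Ptrf (0.95) and Sulf1 (0.95). The closest to single members were Myof for Fn1 (0.98), Man2a1 for Thbs1 (0.96), Col5a1 for Postn (0.925), Lsp1 for Thbs2 (0.95), Anxa3 for Sparc (0.91), Prelp for Fmod (0.92), Col3a1 for Bgn (0.96) and Cst7 for Wisp2 (0.93). Lum and Dcn had each other as the closest gene (0.95). Cst7, a protease inhibitor of activated microglia, ranged from 0 to 71.2 CPM and Prelp, which also binds collagen, from 19.6 to 137 CPM.

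Per kilobase of exon the members differed by orders of magnitude within a cord. In the injured control at 14 days Sparc had 523 CPM per kilobase, Fn1 53.9, Dcn 37.4, Bgn 24.5, Thbs2 21.0, Lum 17.8, Postn 17.2, Fmod 13.8, Thbs1 11.1 and Wisp2 9.9. In the Nkx6.1 cords at 3 days Thbs1, at 126 CPM per kilobase, stood above Fn1 at 118. In the injured control at 35 days Wisp2, at 35.3 CPM per kilobase, and Fmod, at 34.4, were level with Fn1 at 32.9 and Dcn at 31.4. In sham cords at 35 days Sparc had 375 CPM per kilobase and no other member above 4.78.

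Lists of related genes are given for the same injury contrasts, again as a description because they were chosen with earlier results of these libraries known. The shares over all genes called higher were 19.5% at 3 days and 21.3% at 35 days. Of 16 collagens and collagen-modifying enzymes, 13 were called higher in the injured control at 3 days and all 16 at 35 days, such as the prolyl hydroxylase P4ha3 (14.8 CPM in sham and 73.7 CPM in injured cords at 3 days). Of 14 genes of the TGF-beta axis, 10 and 13 were, such as Tgfb1 (5.31 and 38.7 CPM at 35 days). Of 16 receptors, 12 and 11 were, such as Itga5 (4.28 and 54.5 CPM at 3 days). Other small leucine-rich proteoglycans were called in 1 of 12 cases at 3 days and 7 of 12 at 35 days, and other matricellular genes in 8 and 17 of 21, while 1 of these, Sparcl1, named here after its value was seen, was called lower at 3 days. In the comparisons of Gsx1 or Nkx6.1 with injured control cords none of these genes was called at any day.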

How the data were processed

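The deposited table holds whole-number read counts per gene for the 32 libraries; the submitters' processing notes name HISAT2, SAMtools, HTSeq and DESeq2 and the builds mm10 and GRCm38, with no versions. The sources used here do not give the annotation or the strand setting. From these counts, genes were kept with edgeR's filter (minimum count 10, minimum total 15), scaled with TMM factors and fitted in 1 quasi-likelihood model over the 10 groups (R 4.3.3, edgeR 4.0.16, limma 3.58.1), with 22 residual degrees of freedom. Differences between groups were tested as contrasts of that model, and calls were made below 0.05 after Benjamini-Hochberg adjustment over 16314 genes. Printed log2 differences are the fit's own, without shrinkage. The fit was tested on simulated data.

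The members and gene lists were chosen with earlier results of these data known. All members were named, with up to 4 genes of each list by smallest p in a comparison, and the genes most like a member by Pearson's r of log2(CPM + 0.5). Alternatives were other scalings, no filter, DESeq2 1.42.0, only the groups compared, a replicate block, Xist as a covariate, and libraries left out.

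The total count per library had a median of 14.6 M. Intervals on summed counts are exact at 95% and cover counting error only. Replicates within a group correlated at 0.946 to 0.992 and none of the 36 pairs agreed within sampling noise.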

Additional observations from a re-analysis of the deposited data

Results flagged for a closer look

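Postn in replicate 4 of the injured control at 35 days, at 66.7 CPM, stood far from the other 3 libraries of its group, which had 14.6 to 22.1 CPM. It was the 1 library that stood out in 20 checks of a member in a group of 4, where chance gives about 1 in 20. The same library holds transcripts of both sexes, the highest fibroblast marker sum of its group (1546 CPM) and the highest meningeal marker sum of all libraries (275 CPM). Their part in the Postn value was not tested.

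The effect of injury on Fmod differed between days, by 3.85 on the log2 scale at 35 days compared with 3 days. This value is built from the injury contrasts for which the members were picked, and is a description. Both terms contribute: sham cords had 25.1 CPM at 3 days and 7.24 CPM at 35 days, and injured controls 27.4 and 114 CPM.

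The effect of Nkx6.1 on Thbs1 differed between days in the main fit, by -3.18 on the log2 scale at 35 days compared with 3 days. The call was lost on leaving out most of the libraries in turn, as given above. It was also lost with the replicate block (adjusted p = 0.0593) and with only the groups compared (adjusted p = 0.306). Thbs1 was not called between Nkx6.1 and injured control cords at either day in the main fit. Macrophage markers in the Nkx6.1 cords summed to 2959 to 4929 CPM at 3 days and 367 to 1140 CPM at 35 days, and their part in the difference was not tested.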

How the results depend on the processing

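Of 573 values called in the report's fit and recomputed under the alternatives, 507 kept their direction and side of the threshold, 66 lost the call and 0 reversed. Of 2983 values not called, 36 passed the threshold and 129 changed sign. Counts of called members changed by more than 1.5 times as follows. Fitting only the groups compared gave 2 members for Gsx1 against control at 14 days, 2 for the control from 3 to 14 days, 0 from 14 to 35 days, 6 for sham, 1 for Gsx1 cords from 3 to 14 days, 3 for Nkx6.1 cords from 3 to 35 days and 0 for the Nkx6.1 difference between days. DESeq2 gave 1 member for Nkx6.1 at 3 days, 2 for the control from 14 to 35 days, 1 for sham and 2 for the injury effect between days. The control from 14 to 35 days had 0 members called without the filter, with Xist as a covariate, and without the mixed-sex or the muscle libraries. Without these 2 sets of libraries the Nkx6.1 difference between days also had 0, and without the muscle libraries Nkx6.1 cords from 3 to 35 days had 3.

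Leaving out each library in turn gave 5 to 8 members for injury at 3 days, 0 to 2 for Gsx1 at 35 days, 0 to 1 for Nkx6.1 at 3 days, 0 to 1 for Nkx6.1 at 35 days, and 0 to 1 for Gsx1 against Nkx6.1 at 3 days. It gave 0 to 1 for the control from 3 to 14 days, 0 to 3 from 14 to 35 days, 0 to 1 for sham, 1 to 2 for Gsx1 cords, 3 to 6 for Nkx6.1 cords, and 0 to 4 for the Nkx6.1 difference between days.

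Postn in Nkx6.1 cords from 3 to 35 days, at 0.01 on the log2 scale, had no stable sign. It was -0.0158 with relative log expression factors, -0.0162 with library totals, -0.00747 without the filter, -0.00871 without the mixed-sex libraries, -0.0151 with only the groups compared and -0.0252 with DESeq2. Leaving out single libraries gave -1.94, without replicate 3 at 35 days (adjusted p = 0.0306), to 0.78, with -0.15 and -0.36 without replicate 1 or 3 at 3 days.

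The replicate numbers were not used to pair the samples: in 0 of 16 comparisons did every same-numbered pair correlate above 0.1 (range -0.55 to 0.45). Single pairs did in 12 of 48 cases. With so few libraries in a group, this check cannot exclude pairing or shared handling. With the replicate block the control from 14 to 35 days had 0 members called, the Nkx6.1 difference between days 0, and Postn in Nkx6.1 cords a change of -0.43. The cause of these changes was not tested.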
